A study of Arabidopsis thaliana with 12 samples.

Results

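The interval described here is the segment of Arabidopsis thaliana chromosome 2 from AT2G22230 to AT2G31610, to which a locus for flower saiginols, phenylacylated flavonols, was mapped with introgression lines between Col-0 and C24. Members were chosen by position, as the ATH1 probe sets that list 1 locus between these genes, with AT2G22960, AT2G25450, AT2G25150 and SDT left out by name. This gave 452 probe sets for 443 loci, of 13436 probe sets for 13286 loci in all, and RefSeq holds 1102 loci in the interval. Only loci with such a probe set are called measured below. Another 8730 probe sets, controls apart, list no gene, so a locus not called measured may still have a probe set on the array. On the TAIR10.1 build the interval runs from base 9449930 to base 13451982, a length of 4 Mb. Of the members, 433 stand for protein-coding genes, 18 for pseudogenes and 1 for a long non-coding RNA, and only 60 carry a common gene name in RefSeq.

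Transcripts of flowers were measured on 12 arrays from 10 accessions, which are inbred lines: Col-0 and C24 with 2 arrays each, and Cvi, Da, Ler, RLD, Rsch, Sap, Stw and Ws with 1 array each. The plants were grown in long days, and no genetic modification, treatment or plant age is given for the flowers. The Col-0 and C24 pairs are described as duplicate hybridizations, and their titles mark them ExpI and ExpII. Whether their spread is technical or lies between experiments is not stated, and the accessions with 1 array have no error of their own. Labels conflict for a pair of arrays: Sap by its title is RLD by its ecotype, and Stw by its title is Sap-0. The titles were used, and the counts below were repeated without both. A signal is a brightness on a linear scale that the authors set to a trimmed mean of 100 on each array. The ATH1 probes represent the Col-0 genome, and a lower transcript level in another accession cannot be told apart from a poorer match of its sequence to the probes. In whole flowers, fewer cells of a type and less RNA per cell likewise cannot be told apart.

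Accessions of a selfing plant such as Arabidopsis carry long shared haplotypes, in which neighbouring genes are inherited together. Differences in transcript level between accessions can lie in the gene itself, such as a deletion or a changed promoter, or in regulators elsewhere in the genome. Genes in tandem, copies that lie side by side, are known to differ in number and expression between accessions, and the interval holds such runs of glycosyltransferases, carboxypeptidase-like acyltransferases and short-chain dehydrogenases.

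The arrays were alike in brightness, with medians of 46 to 51.1. Probe sets for bacterial control transcripts, 27 in all, reached at most 16.6, and 158 members (35%) had a mean signal no higher than that. The median signal of the members was 34.4, against 39.2 over all probe sets with 1 locus. The 2 C24 arrays differed at least 2-fold at 17 members, 15 of them higher on the second array, and the 2 Col-0 arrays at 7. Pairs of arrays of different accessions differed at 4 to 33 members, with a median of 11 over 64 pairs, so the number for the C24 duplicates exceeded that of a typical pair of accessions. Of the 7 floral organ identity genes listed as markers, 0 had a probe set with a named locus, so the tissue could not be checked with them. Of 5 pollen markers 3 were measured, with AT3G28750 at 638.1 to 2302.4, and the 1 root marker measured, RGI2, lay at 2.3 to 21.3.

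Most of the interval varied little between accessions, and its variation was that of the genome. The SD of log2(signal + 16) over the 10 accession values had a median of 0.213 over the members, with its 10th and 90th percentiles at 0.12 and 0.37, and of 0.213 over all probe sets tested. The other probe sets of chromosome 2 had a median of 0.209, and chromosomes 1, 3, 4 and 5 had medians of 0.213, 0.211, 0.215 and 0.213. The SD within the duplicates had a median of 0.189 over the members. The SD over accessions lay above it in 250 members (55.3%), against 55.9% of all probe sets. In 376 members (83.2%, against 81.6% of all) the highest and the lowest accession were less than 2-fold apart. Folds in such counts are of signal + 16, which understates the differences of dim members. Within 8 bins of 500 kb, each with 45 to 65 members, the median SD ran from 0.198 to 0.233, and no bin stood far from the others.

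**Figure D1:**
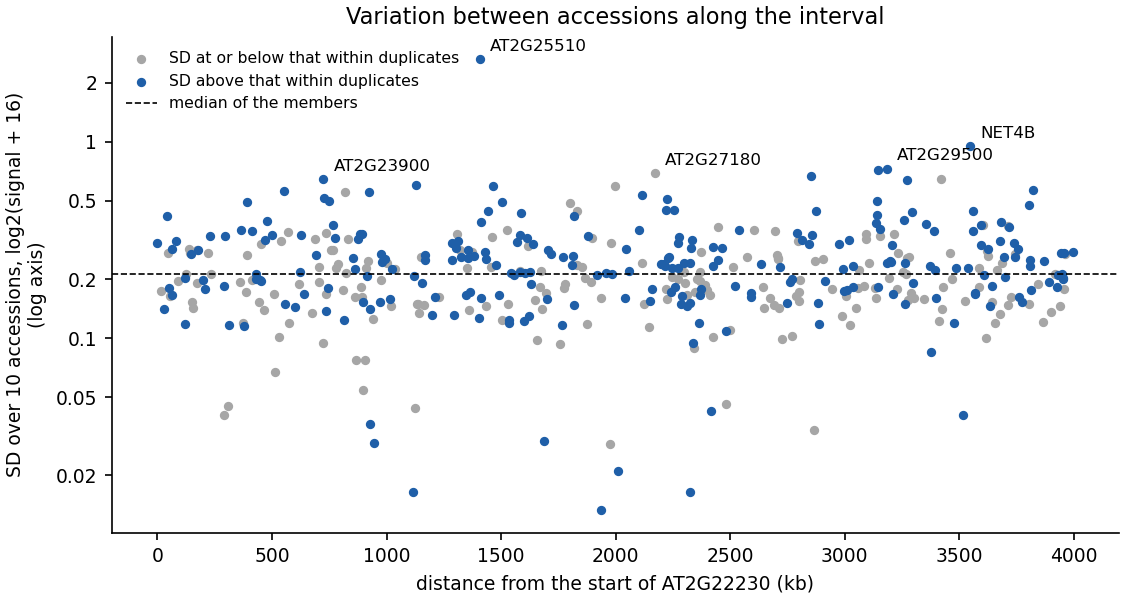
SD over 10 accessions of log2(signal + 16) (log axis) against the distance from the start of AT2G22230 in kb, 1 point for each of the 452 members, blue where it lies above the SD within the duplicate arrays, with the members' median of 0.213 dashed. AT2G25510 at 2.63 and NET4B at 0.951 stand above a band that keeps about the same height along the interval.

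limma's moderated F test over the 10 accessions, with the spread taken from the duplicates, called 0 members at a Benjamini-Hochberg adjusted p of 0.05, and 0% of the 13436 probe sets tested. The smallest adjusted p of a member was 0.246. At an unadjusted p of 0.05 it called 32 members (7.08%), against 7.32% of all probe sets. With only 2 residual degrees of freedom from the duplicates, the test leaves out the spread between plants of the 8 accessions with a single array. When probe sets in the lowest 25% of mean signal were left out, 2 members passed, AT2G25510 and NET4B, both with an adjusted p of 0.0286. With that filter 55 of the 10076 probe sets tested passed over the whole array, so such calls were not particular to the interval.

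An SD of at least 0.5 was found for 20 members (4.42%, against 4.74% of all probe sets), and 10 members (2.21%, against 1.99%) were at least 4-fold apart between the highest and the lowest accession. A member was called on and off where 1 accession or more had a signal of at least 100 and 1 or more had at most 20. This held for 3 members, AT2G25510, NET4B and AT2G29500 (0.664%, against 0.893% of all). At the other ends, 73 members (16.2%, against 18%) were on in every accession and 123 (27.2%, against 26.6%) were off in every accession. All these shares lay near those of the whole array, which also counts the 4 loci left out of the interval by name. With those loci in, the interval's counts of on and off members, 4-fold members and large SDs would be higher. The count of 4-fold members rested partly on single accessions, with 5 left without Cvi and 6 without Da, and on the 16 added to each signal, being 122 with 1 added and 1 with 64 added.

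AT2G25510, a protein-coding gene without a common name at bases 10856271 to 10857217, varied most, and only 1 of the 13436 probe sets varied more. Its signal was 2385.5 and 1146.7 on the Col-0 arrays, 557.9 and 1998.9 on the C24 arrays, 1263.4 in Ws and 540.2 in Cvi. In the other 6 accessions it was 14.3 in Da, 15.6 in Ler, 18.1 in RLD, 18.0 in Rsch, 15.9 in Sap and 16.7 in Stw. The accessions thus fell into a set of 4 and a set of 6 with no overlap, and the lowest of the high arrays was 29.8-fold above the highest of the low arrays. Each low array lay above its own brightest bacterial control, which was 8.8 to 16.6 on these arrays. Within the high set, the C24 duplicates were themselves further apart than Cvi and the lower C24 array. The F test of limma gave an adjusted p of 0.494 (SD 2.63 over accessions, 1.05 within duplicates). Of its neighbours AT2G25500, whose start lies 1.619 kb away, was at 0.2 to 4.4 on every array. AT2G25520, 4.397 kb away on the other side, was at 290.8 to 542.1 on the arrays of the 4 high accessions and at 225.9 to 246.8 in the low ones except Ler, which had 469.8. Over the 10 accessions r between AT2G25510 and AT2G25520 was 0.603 (permutation p = 0.0628, adjusted p = 0.783 over 13212 adjacent pairs; Spearman's rho 0.297, p = 0.408), and 0.347 without the 2 accessions farthest from the median.

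NET4B, at bases 12998105 to 13000825, belongs to the Networked family, plant proteins that bind actin filaments at membranes. Its signal was 140.7 and 123.3 on the Col-0 arrays, 125.6 in Da, 121.8 in Ws and 119.2 in RLD. It was 33.6 and 34.5 on the C24 arrays, 33.2 in Cvi, 33.6 in Sap, 21.3 in Ler, 18.7 in Rsch and 13.7 in Stw. Again a set of 4 and a set of 6 accessions did not overlap, with 3.46-fold between their nearest arrays, and within the low set C24, Cvi and Sap lay above Ler, Rsch and Stw. Both pairs of duplicates agreed closely (SD 0.0859 within duplicates, 0.951 over accessions), and the F test gave an adjusted p of 0.246, the smallest of any member. The set differs from that of AT2G25510: Col-0 and Ws were high in both, C24 and Cvi only for AT2G25510, and Da and RLD only for NET4B. The measured neighbours AT2G30480 and AT2G30530 had r of 0.0373 and 0.167 with it (permutation p = 0.919 and 0.705; rho -0.0243 and 0.176). Another Networked gene of the interval, NET2D, lay at 20.5 to 77.5 with an SD of 0.284, below its SD within duplicates of 0.369.

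AT2G25510 and NET4B were the 2 members (0.442%, against 0.484% of all probe sets) in which 2 or more accessions stood at least 2-fold apart in signal + 16 from all the others, a count added after the values were seen, while the 29.8-fold and 3.46-fold above are of the signal itself. Next came AT2G25650, with the C24 arrays at 4.8 and 7.0, Cvi at 5.7 and Ler at 3.7, and all other arrays at 21.6 to 41.5 (adjusted p = 0.473 in the F test). AT2G23970 was at 1.8 in Stw and 4.0 in Rsch and at 15.6 to 35.0 elsewhere. AT2G27285 was at 29.3 in RLD and 33.8 in Sap, whose ecotype label is also RLD, and at 63.7 to 125.6 elsewhere. Each of these splits set apart other accessions, and most of their low values lay below the brightest bacterial control of their array, where the order of signals says little.

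**Figure D2:**
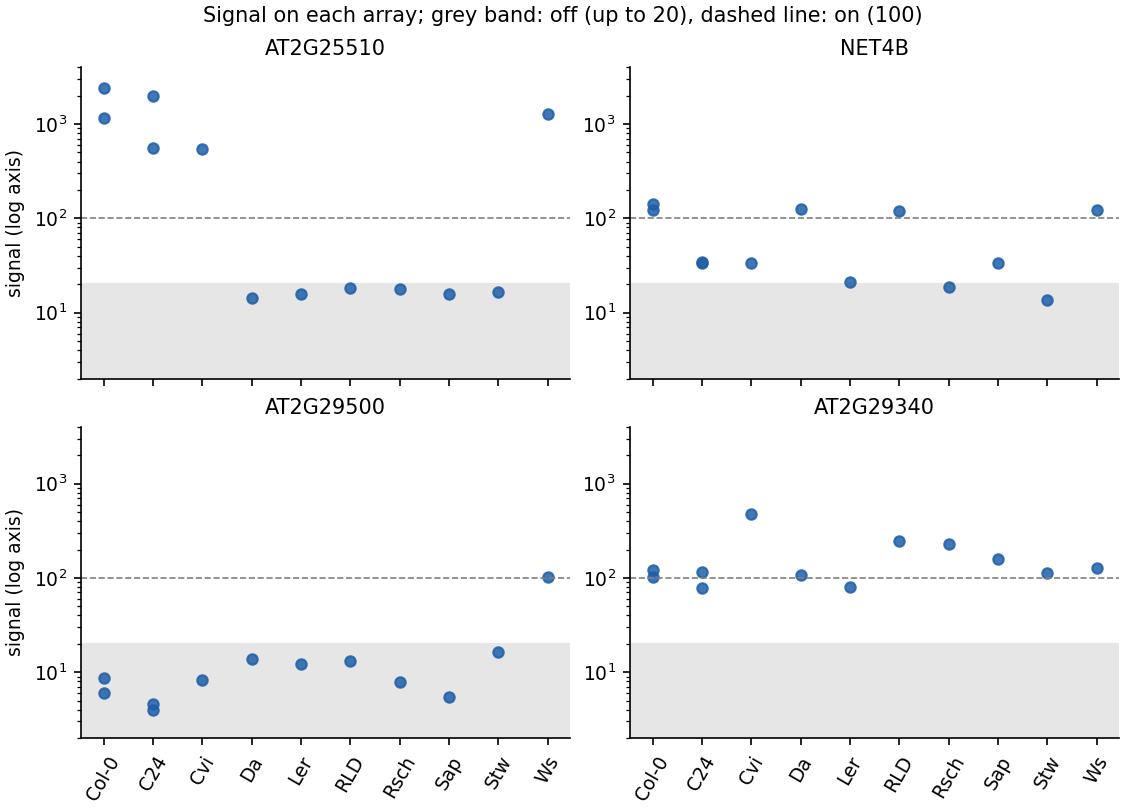
Signal (log axis) on each of the 12 arrays, by accession, for the 4 members with the largest SD; the grey band marks off (up to 20) and the dashed line on (100). AT2G25510 and NET4B each split the accessions into 4 high and 6 low, AT2G29500 reaches 101.5 only in Ws, and AT2G29340 is highest in Cvi at 472.7.

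Single accessions set several of the other large SDs. AT2G29500 was at 101.5 in Ws, while the other arrays held 4.0 to 16.4, with 6.0 and 8.7 in Col-0 and 4.0 and 4.6 in C24. Its adjusted p in the F test was 0.344. It is thus on in 1 accession, measured on 1 array, and its SD of 0.729 fell to 0.231 without Ws. AT2G23480, a pseudogene, was at 55.2 in Da, 26.2 in RLD and 4.8 to 15.3 elsewhere. Its probe set is marked _x_at, so it may also pick up other transcripts, which was not tested. AT2G28680 was high in Da at 227.4 and Rsch at 147.4 and low in Cvi at 29.1, with 50.3 to 117.1 on the other arrays and duplicates close together, at 65.8 and 67.9 in Col-0 and 75.6 and 80.4 in C24 (adjusted p = 0.347). AT2G29790 was likewise highest in Da at 216.9 and lowest in Cvi at 36.3.

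A drop in 1 accession was seen in AT2G24830, which was at 3.6 in Cvi and 28.7 to 67.4 elsewhere. AT2G24390 was at 2.6 in Ler and 22.9 to 62.8 elsewhere. AT2G31150 was at 0.9 in Rsch and 19.9 to 52.3 elsewhere. In these 3 members the low value lay below the brightest bacterial control of its array, while all other arrays lay above 16.6, the highest control signal on any array. AT2G27260 showed a drop that stayed above the controls, at 91.6 in Cvi and 197.2 to 314.1 elsewhere. AT2G24020 was at 101.6 in Sap and 192.6 to 312.2 elsewhere. The C24 arrays were lowest and close together in AT2G23120, one of the brightest members, at 524.0 and 445.1, with 782.2 to 1633.2 elsewhere (adjusted p = 0.555). They were also lowest in AT2G25830, at 41.0 and 38.1 with 69.2 to 101.0 elsewhere, a member chosen after its values were seen, as were AT2G23970, AT2G27285, AT2G27260, AT2G24020 and AT2G23120.

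Counted over all members, Da was alone on the high side in 7 (1.55%, against 0.841% of all probe sets), meaning at least 2-fold above the median of the others with no other accession as far above. Cvi was alone on the low side in 5 (1.11%, against 0.64%). Each other accession was alone on the high side in 0 or 1 member and on the low side in 0 to 2. Over the whole array 2.86% of probe sets had an accession alone on the high side and 2.78% one on the low side.

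**Figure D3:**
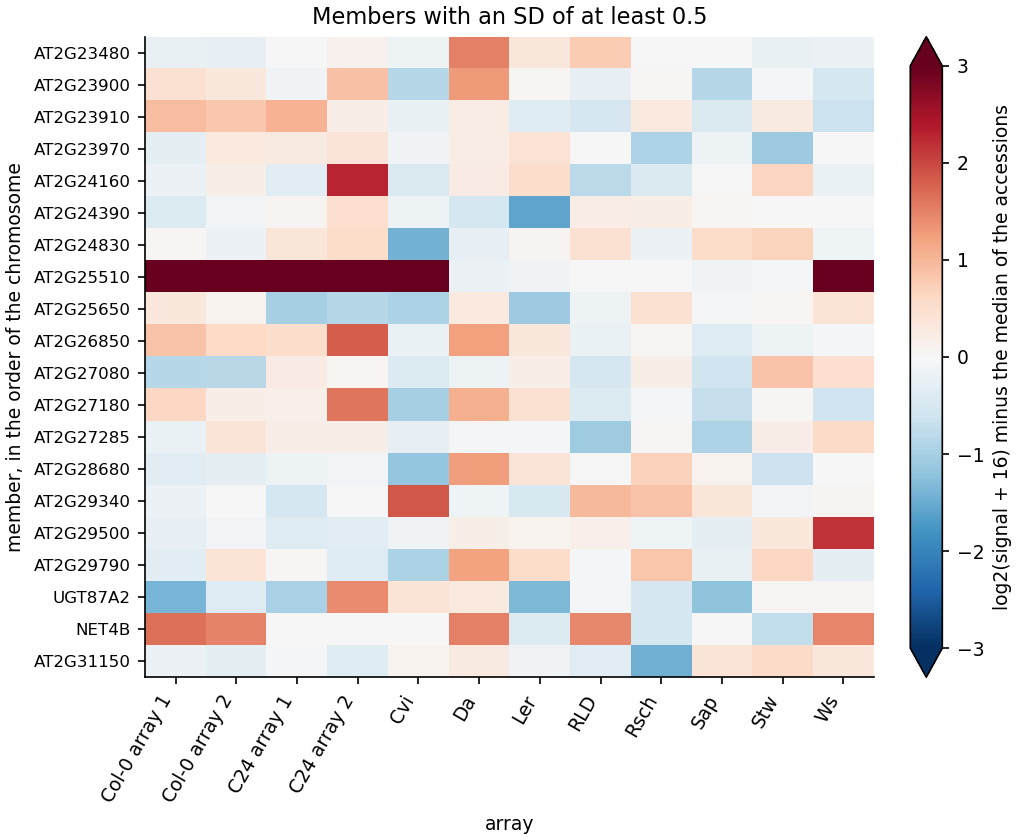
The 20 members with an SD of at least 0.5, in the order of the chromosome, on each of the 12 arrays; colour gives log2(signal + 16) minus the median of the 10 accession values, red above and blue below. The second C24 array is red in AT2G24160, AT2G26850, AT2G27180 and UGT87A2. Rows next to each other are mostly not adjacent members, and the only adjacent pair is AT2G23900 and AT2G23910.

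Members that followed pollen transcripts were found at the rate of the whole array. The 3 measured pollen markers, ACT12 (an actin of pollen), APPB1 and AT3G28750, had their highest mean log2 value in Da, 8.33, and their lowest in Cvi, 7.16. On the second C24 array AT3G28750 was at 2274.5 and APPB1 at 306.8, against 1074.2 and 129.5 on the first. ACT12 did not follow them, at 30.5 on the first and 29.9 on the second C24 array. Its highest signals were 43.9 and 47.3 in Col-0, with 29.7 in Da. Over the 10 accessions 4 members (0.885%, against 0.916% of 13433 probe sets) had r of at least 0.8 with that mean. AT2G23900 had r = 0.952 (permutation p = 3e-05; rho 0.927, p = 0.0004), and 0.877 without the 2 accessions farthest from the median. AT2G27180 had r = 0.936 (permutation p = 8e-05; rho 0.879, p = 0.00164), and 0.898 without those 2. AT2G26450 and AT2G26850 had r = 0.913 and 0.906 (permutation p = 0.00027 and 0.00054; rho 0.903 and 0.806), and 0.886 and 0.871 without those 2. After adjustment over 13433 probe sets 0 members passed, with adjusted p of 0.134 for AT2G23900 and AT2G27180, 0.173 for AT2G26450 and 0.217 for AT2G26850, and 26 members (5.75%) had an unadjusted p under 0.05; over all 13433 it was 0% and 6.25%.

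All 4 members were highest on the second C24 array and in Da. AT2G27180 was at 514.1 on the second C24 array, 351.8 in Da, 253.8 and 182.9 in Col-0, 177.3 on the first C24 array, and 71.1 in Cvi, its lowest. AT2G23900 was at 207.9 in Da and 153.9 on the second C24 array, and lowest in Cvi at 34.7 and Sap at 35.2. AT2G26850 was at 204.9 on the second C24 array and 130.2 in Da, and lowest in Sap at 31.6. AT2G26450 was at 183.3 on the second C24 array and 124.0 in Da, and lowest in RLD at 39.3. The C24 duplicates thus spanned much of the range between accessions, and none of the 4 had an unadjusted p under 0.05 in the F test, their adjusted p running from 0.711 to 0.76. How much of their variation the pollen content of the flower samples accounts for was not tested.

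TRI, a tropinone reductase of the short-chain dehydrogenases, lies in a dense run of genes, and a list of 14 loci drawn up around it had 12 measured members. Their median SD was 0.325, against 0.213 over all probe sets, and 5 of the 12 had an unadjusted F test p under 0.05, against 7.32% of all probe sets. None passed after adjustment over all probe sets, and the list was drawn up with results of these data known. AT2G29340 varied most, at 103.0 and 120.4 in Col-0, 77.6 and 116.8 in C24, 472.7 in Cvi, 248.8 in RLD, 229.0 in Rsch, 157.6 in Sap, 125.8 in Ws, 111.8 in Stw, 107.8 in Da and 80.3 in Ler (SD 0.72, adjusted p = 0.555). Cvi, RLD and Rsch lay above all other arrays. AT2G29310, 2 loci before TRI, was instead low in Rsch at 89.1 and Ler at 91.6, and at 140.4 to 267.2 elsewhere (adjusted p = 0.543). AT2G29320 was lowest in Stw at 41.2 and Rsch at 48.5 and highest in Sap at 130.7. AT2G29290 was at 20 in Rsch, 30.8 in RLD and 40.9 to 66.4 elsewhere. AT2G29370 was highest in C24, at 129.9 and 135.0, and at 50.2 to 109.6 elsewhere.

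The 12 members include AT2G30670, which lies outside the run. Among the 55 pairs of the other 11 the median r was 0.0564, from -0.742 to 0.623, and 0 pairs had r of at least 0.8. TRI itself lay at 6.0 to 17.1 over the 12 arrays. Near-identical copies can share probes, and how far these probe sets tell the copies apart was not tested.

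**Figure D4:**
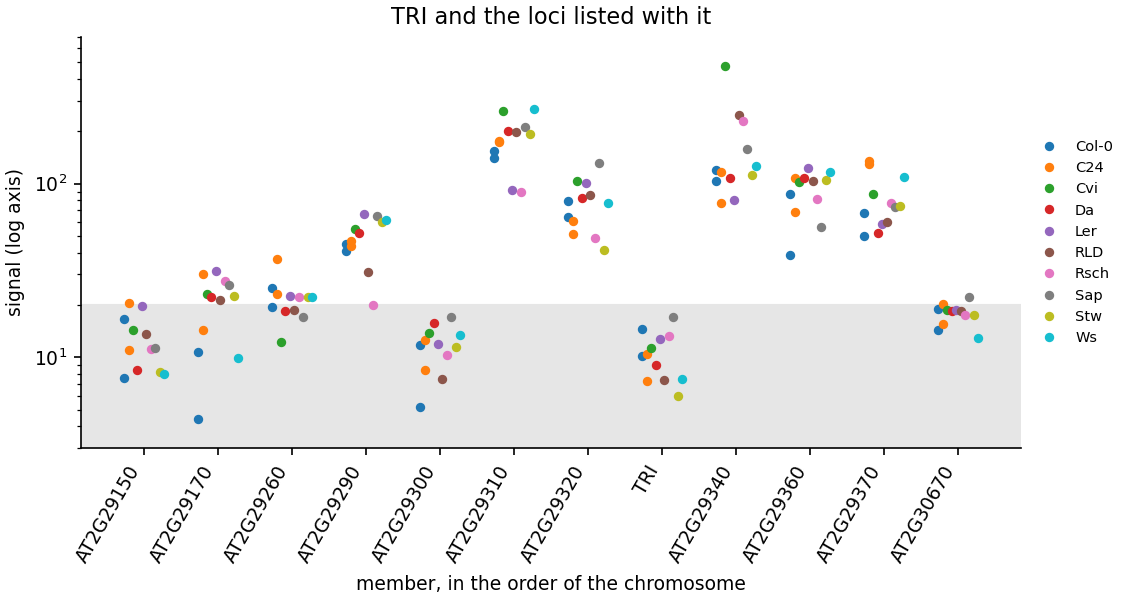
Signal (log axis) of the 12 measured members of the list around TRI, in the order of the chromosome, 1 point for each array coloured by accession, with the range up to 20 shaded. AT2G29310, AT2G29340 and AT2G29370 put different accessions at the top and bottom, and TRI, AT2G29150 and AT2G29300 stay in or at the shaded range.

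UDP-glycosyltransferases attach sugars to hormones, flavonoids and other small molecules, and 11 of 13 listed were measured, with a median SD of 0.216. In 7 of the 11, against 26.6% of all probe sets, no accession rose above 20, among them UGT84B1, UGT84B2, UGT71C1 and UGT71C2. UGT87A2, which is known to affect flowering time, had the largest SD at 0.645, but its duplicates were further apart than the accessions: 31.7 and 78.6 in Col-0 and 47.6 and 317.0 in C24, with 33.2 to 149.1 in the others (SD within duplicates 1.29, adjusted p = 0.951). Its neighbour AT2G30150 was steady at 77.8 to 127.8. UGT71C1 lay at 1.1 to 18.6, with the Col-0 arrays at 16.8 and 18.6 and Stw at 18.0 (adjusted p = 0.678). UGT76D1 ran from 12.2 in Ler to 37.1 in Cvi with duplicates close together, at 19.7 and 20.1 in Col-0 and 23.4 and 22.6 in C24 (adjusted p = 0.69).

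The serine carboxypeptidase-like genes include acyltransferases of phenylpropanoid metabolism, and only 2 of 9 listed had a probe set with a named locus. The others were not examined, so nothing is said here of their signals. The 2 examined, scpl22 and scpl23, stayed low, at 0.4 to 12.6 and 1.8 to 16.5. Of 17 cytochrome P450 genes 1 was measured, CYP71B6, at 96.1 to 297.6 with an SD of 0.321 below that within its duplicates, 0.535. Of 12 loci listed for defence and heat response 2 were measured: AT2G29500, described above, and PDF1.2b, a plant defensin gene, at 5.7 to 24.9 with its highest signal in Ws. The probe set of PDF1.2b is also marked _x_at. Of 6 transport genes 1 was measured, AT2G26690 of the NRT1/PTR family, at 47.6 to 167.3 (adjusted p = 0.856), and of 10 for protein synthesis and upkeep 1, AT2G31390, at 279.9 to 485.5 (adjusted p = 0.775). For glutathione S-transferases and methylesterases, with 9 and 8 loci listed, 0 had a probe set with a named locus. MOT1, ERECTA and SVP, known from work on natural variation, had no probe set with a named locus and were not analysed here.

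Of 22 regulators of the flower and meristem listed, 6 were measured, with a median SD of 0.0637, against 0.213 over all probe sets. In 5 of the 6, against 26.6% of all probe sets, no accession rose above 20. CLV3 encodes the peptide that limits the stem cells of the shoot meristem, and its signal was 13.2 in Sap, above the 9.6 of that array's brightest bacterial control, and 0.9 to 4.9 elsewhere. ATC, a relative of the flowering repressor TFL1, was at 0.9 to 1.5, and the MADS-box genes AGL33, AGL41 and AGL46 reached at most 5.3. AGL61, a MADS-box gene of the central cell of the female gametophyte, lay at 10.3 to 28.1. At such signals the absence of a difference cannot be read as equal expression.

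The 3 steadiest bright members were chosen for their small SD. AT2G30060 varied least among members with a mean signal of at least 200, at 320.3 to 387.1 over all 12 arrays (SD 0.0846), followed by AT2G23090 at 816.2 to 1069.0 (SD 0.115) and AT2G23070 at 460.6 to 645.3 (SD 0.119). Of the 73 members on in every accession, 68 (93.2%, against 84% of all such probe sets) were less than 2-fold apart. Among the members with a common name, all described after their values were seen, PSBW, a small subunit of photosystem II, was at 1400.5 to 1999.0. PGY1, a ribosomal protein, was at 978.2 to 1714.2. TUB7, a beta-tubulin, was at 313.0 to 550.3. RTE1, which acts with the ethylene receptor ETR1, was at 95.1 to 124.6, and SE, a factor in microRNA processing, at 54.9 to 81.1. In each of these the spread over accessions was of the size of the spread within duplicates or below it, except that in PSBW it was 0.168 against 0.158.

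The following members with a common name were also chosen after their values were seen, and none passed the test. ALDH11A3, a non-phosphorylating glyceraldehyde-3-phosphate dehydrogenase, was at 439.1 and 638.4 in Col-0 and 539.8 and 496.5 in C24, and higher, at 696.7 to 1000.2, in the other 8 accessions (adjusted p = 0.718). ENOC, an enolase, was highest in C24, at 225.1 and 207.6, and lowest in RLD at 111.4 (adjusted p = 0.726). ZIP6, of the zinc and iron transporter family, ran from 53.4 in Cvi to 138.3 in Da (adjusted p = 0.693). GH3.3, which conjugates auxin to amino acids, ran from 67.8 in Cvi to 208.7 on the second C24 array (adjusted p = 0.769). THIC, of thiamin synthesis, ran from 248.9 in RLD to 621.3 on the first Col-0 array, whose duplicate was at 373.0 (adjusted p = 0.79). LHW, a factor of vascular development, ran from 103.1 in RLD to 200.1 in Sap (adjusted p = 0.779). ATRER1C1, related to a protein that returns cargo to the endoplasmic reticulum, was lowest in C24, at 124.2 and 120.6, and reached 233.7 in Col-0 and 230.2 in Ws (adjusted p = 0.678). TET8, a tetraspanin, was at 281.3 to 474.8 apart from 746.6 on the second C24 array.

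An r of 0.8 was rare among neighbours, meaning members next to each other among the measured loci. In only 176 of the 438 such pairs did no other RefSeq locus lie between. Over the 438 pairs the median r over the 10 accessions was 0.0206, against 0.00964 for 89253 pairs more than 20 loci apart. An r of at least 0.8 was found for 1 adjacent pair (0.228%), against 0.387% of the distant pairs and 0.53% of 13212 adjacent pairs over the 5 chromosomes. The order of these shares depended on the measure: with the first principal component removed they were 1.14% of the adjacent and 0.575% of the distant pairs, with Spearman's rho 1.14% and 0.463%, and without Cvi the adjacent share was 0.913%. The pair past 0.8, AT2G23060 and AT2G23070, had r = 0.84 (permutation p = 0.00248, adjusted p = 0.636; rho 0.818, p = 0.00599), and 0.777 without the 2 accessions farthest from the median. Their starts lie 10.87 kb apart with 4 loci between, and AT2G23070 was among the steadiest members. By the permutation test 0 adjacent pairs passed at an adjusted p of 0.05, as in 0% of the genome, and 25 (5.71%, against 6.39%) had an unadjusted p under 0.05, 16 of them with a positive r. An r of at least 0.7 was found for 10 adjacent pairs (2.28%), against 1.55% of the distant pairs and 2.13% of adjacent pairs over the genome. In the 176 pairs with no RefSeq locus between, the median r was 0.0461. Of these, 0 had r of at least 0.8 and 6 (3.41%) had r of at least 0.7. Whether these shares differ from those of distant pairs was not tested.

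The next pairs in order of r were AT2G26800 and AT2G26810 (r = 0.761, permutation p = 0.0102, adjusted p = 0.669; rho 0.83, and r 0.765 without the 2 farthest accessions) and AT2G27285 and AT2G27290 (r = 0.76, permutation p = 0.0113, adjusted p = 0.669; rho 0.527), whose r was 0.0762 without the 2 accessions farthest from the median. The glutamate receptor-like genes GLR2.9 and GLR2.8 had r = 0.753 (permutation p = 0.0585, adjusted p = 0.783; rho 0.353) and lay at 0.4 to 30.4, with the second C24 array highest for both. The most variable adjacent pair, and the only one with an SD of at least 0.5 in both members, was AT2G23900 and AT2G23910, with r = 0.622 (permutation p = 0.0529, adjusted p = 0.78; rho 0.624, p = 0.0604) and 0.82 without those 2. AT2G23910 was at 132.5 and 118.9 in Col-0, 143.5 and 73.6 in C24, and 33.4 to 78.7 elsewhere, and the second C24 array, which raised AT2G23900, was the lower one here. By rank, AT2G30990 and AT2G31010 came closest, with rho 0.939 (permutation p = 0.00028, adjusted p = 0.688) and r 0.584 (permutation p = 0.095), and r 0.86 without the 2 farthest accessions. AT2G24340 and AT2G24350 had rho 0.872 (permutation p = 0.00177, adjusted p = 0.688) and r 0.743. An r of -0.8 or lower was found once, for AT2G24620 and ATCSLC08 (r = -0.803, permutation p = 0.00475, adjusted p = 0.64; rho -0.632), and r was -0.181 without the 2 farthest accessions.

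**Figure D5:**
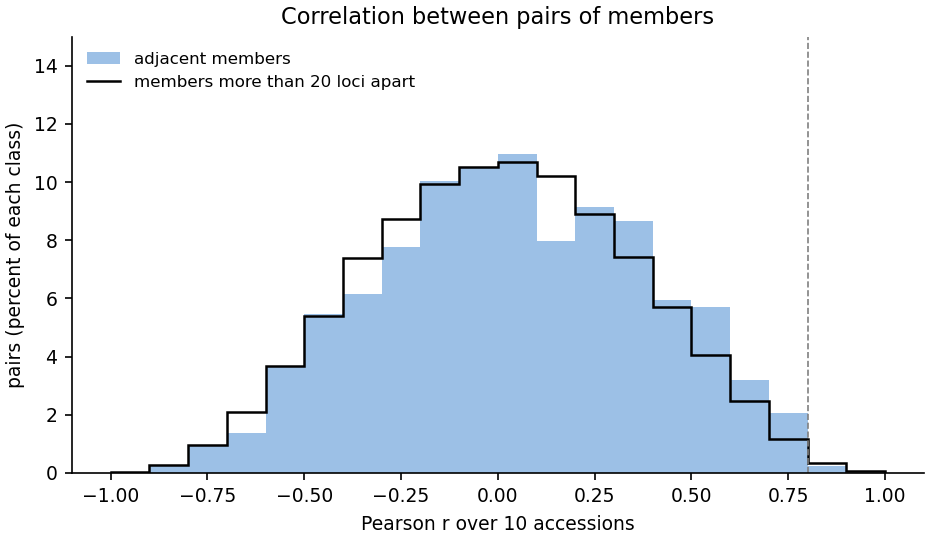
Percent of pairs in each class by Pearson r over the 10 accessions, for 438 adjacent members (filled) and for 89253 pairs more than 20 loci apart (line), with r of 0.8 dashed. The distributions largely overlap, centred at medians of 0.0206 and 0.00964.

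Probe sets of 1 locus were a check on these correlations. For 8 loci with several probe sets the r between the 2 brightest ran from -0.498 to 0.617 over the 10 accessions (smallest permutation p = 0.0563, adjusted over these 8 loci 0.412). At AT2G31110, with the highest r, the probe sets had mean signals of 138.5 and 79.5. At AT2G28540, with the lowest, they were at 126 and 18.3, and their SDs were 0.103 and 0.2. Probe sets of the same gene with small SDs were thus not seen to rank the accessions alike, and the correlations between neighbours with small SDs carry the same limit.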

How the data were processed

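Total RNA of flowers was labelled with biotin and hybridized to Affymetrix ATH1 arrays. Each array's deposited column holds linear intensities, 1 per probe set, which the authors had scaled to a trimmed mean of 100 (2% left out at each end). The summarization software is not given in the sources used here. Groups are the accessions in the sample titles. Probe sets were named through the platform table and RefSeq (TAIR10.1). Of 22810 probe sets, 13513 list 1 gene and 13436 gave 1 RefSeq locus. Signals were transformed to log2(signal + 16), duplicates were averaged, and the F test of limma 3.58.1 (R 4.3.3) was run over all 13436. It was tested on simulated data, where it recovered 44% of probe sets changed by a log2 difference of 2 and 87% of those changed by 4 at an adjusted p of 0.05. The change was given to Col-0, Da, Sap and Ws together, in probe sets with a mean above the median. Recovery of changes in 1 accession or in dim probe sets was not simulated. Correlations used 100000 resamples, two-sided. Those between neighbours took 1 probe set per locus, the brightest. Those with the pollen markers took each of 13433 probe sets, and the check on loci with several probe sets took the 2 brightest. All p-values were adjusted by Benjamini-Hochberg. Members, lists and tests were chosen with earlier results of these data known. Genes were named by rule: the 15 largest SDs, on and off members, variable adjacent pairs, the 2 most variable members of each list, the 3 steadiest bright members and 3 known genes; all other members were named after their values were seen. Alternatives were other pseudocounts, normalizations, filters, thresholds and left-out arrays.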

Additional observations from a re-analysis of the deposited data

Results flagged for a closer look

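Of 29 named members tested, 5 had an accession whose gap to the nearest other, as a share of the whole range, passed Dixon's critical value for 10 samples, and chance flags about 1 in 20 groups. Most of these members were named for a large SD, and over all members 49 (10.8%) passed, against 9.83% of all 13436 probe sets. CLV3 in Sap stood apart on the high side with a gap of 0.743 of the range, at a signal of 13.2 against 3.5 for the next accession, C24. AT2G29500 in Ws had a gap of 0.734 on the high side, at 101.5 against 16.4 in Stw. On the low side AT2G24830 in Cvi had a gap of 0.569, at 3.6 against 28.7 in Da. AT2G24390 in Ler had a gap of 0.566, at 2.6 against 22.9 in Da. AT2G31150 in Rsch had a gap of 0.551, at 0.9 against 20.5 in RLD. Each rests on 1 array, and the values of Sap are those of an array whose labels conflict.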

How the results depend on the processing

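The median SD of the members was 0.11 to 0.36 over all alternatives and 0.207 to 0.229 when an accession or array was left out. The F test called 0 members, except 2 with the lowest 25% of signals left out, where 55 of all 10076 probe sets passed. With an array left out it always called 0 members. Its share at an unadjusted p under 0.05 ran from 3.1% to 9.96%, with 3.32% without Col-0 and 3.1% without either of its arrays. Members at least 4-fold apart numbered 122 with a pseudocount of 1, 1 with a pseudocount of 64, 5 without Cvi and 6 without Da (5 to 14 over all left-out accessions and arrays), 76 at 2-fold and 1 at 8-fold. On and off members numbered 1 with on at 200, 1 with off at 10 and 15 with on at 50, and 2 to 4 with an accession or array left out. The share of adjacent pairs with r of at least 0.8 was 0.457% with a pseudocount of 64, 0.604% without the lowest 25%, 0.685% without Sap and Stw, 1.14% with Spearman's rho (distant pairs 0.463%), 1.14% with the first principal component removed (distant pairs 0.575%), 2.28% at r of 0.7, 0% at r of 0.9 and 0% within 10 kb. Without Cvi it was 0.913%, without Ler and without RLD 0.685% each, without Col-0, Da, Rsch or the second C24 array 0.457% each, so it ran from 0.228% to 0.913%. With 1 pair behind the main value, 1 more pair doubles the share; no other cause was tested. The labels ExpI and ExpII in the titles of Col-0 and C24, taken as a block, gave 0 adjusted calls. Only these 2 pairs carry the labels, and their differences correlated at r = 0.114 over all probe sets. Leaving out pairs of similar proteins was not run. Signals near the bacterial controls limit what dim members can show.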
